A study of Mus musculus with 6 samples.

Results

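Integrins are heterodimers of an α and a β subunit that bind matrix proteins outside the cell and, through talin, kindlin and a layer of adaptors, pull on actin filaments inside it. The sites where this happens are focal adhesions: talin and vinculin carry the force, filamins and α-actinins cross-link the filaments, and zyxin and its relatives are recruited where tension is high. When a fibroblast-like precursor turns into a fat cell it rounds up, takes apart much of this apparatus and fills its membrane with caveolae, and a laminin-rich basement membrane takes the place of a fibronectin-rich matrix. The genes followed here are 18 integrin subunits and 24 linkers, adaptors and caveolar proteins, 42 in all, picked by name from a list. Each was read by the probe set of highest mean whose annotation gave that symbol alone, which left 39 of the 42 genes, out of 21996 named genes on the array. Itga10 (a collagen-receptor subunit), Ptk2 (focal adhesion kinase) and Ilk (integrin-linked kinase) were not analysed here, Ilk because its probe sets are also annotated to a neighbouring gene.

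The cells were C3H10T1/2 adipocytes, made from a mouse embryo line with mesenchymal stem cell properties, at 9 days of differentiation. All cultures, controls included, had been exposed for 72 h to an adenovirus at a multiplicity of infection of 50. The virus of 3 cultures, called scramble here, carried a hairpin of scrambled sequence. That of the other 3, called Zc3h10 shRNA, expressed from a U6 promoter a hairpin against Zc3h10, the gene of a zinc finger protein. A single hairpin in a single cell line is the model, and the comparison asks which transcripts differ when that hairpin is present.

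The 6 single-colour arrays had median intensities of 15.6 to 16.1 and correlated at r of 0.992 to 0.994 within groups and 0.985 to 0.988 between them, across probe sets. Zc3h10 itself differed by −0.34 on the log2 scale and did not pass (limma, adjusted p = 0.301), with overlapping groups, so the knockdown was not shown by its own transcript. Of 6 adipocyte markers, 5 were lower in the Zc3h10 shRNA cells, against 6.60% of all named genes. They were led by Plin1 (−1.16), and Lep was under the background limit. That limit, a log2 intensity of 4.37, lies above the mean of 97.5% of the 1375 genes of smell and pheromone receptors, most of which are silent outside sensory organs. All 6 endothelial markers and 6 of 7 leukocyte markers were under it too, with Cd68 above. Of 6 smooth muscle markers, Tagln (1.01), Acta2 (0.80) and Smtn (0.43) rose, against 5.51% of all named genes. The intensities of the 6 summed to between 1544 and 1916 in scramble cells and between 2800 and 3095 in shRNA cells. The smooth muscle myosin gene Myh11 and Lmod1 did not pass, and Cnn1 was under the limit. Smtn lost its call when scramble replicate 2 or 3 or shRNA replicate 1 or 2 was left out (largest adjusted p = 0.0906). Acta2 (adjusted p = 0.0515) and Smtn (0.0533) missed the threshold with an ordinary statistic in place of the moderated one of limma. The part of these markers in the results that follow was not tested. In a culture measured in bulk, fewer cells of one state and less RNA per cell cannot be told apart.

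In the Zc3h10 shRNA cells 13 of the 39 genes rose and 4 fell. The rises were mostly in the force-bearing and actin-binding layer of the adhesion: Zyx, Flna, Lpp, Tln1, Flnc, Vcl, Actn1, Vasp and Fblim1. They also included the integrin subunits Itgb8, Itga8, Itga5 and Itgb1. The falls were in the laminin receptor subunits Itga6 and Itga7, the tensin gene Tns1 and the caveolin gene Cav1. Among all named genes 12.1% changed at an adjusted p under 0.05 (limma, Benjamini-Hochberg over 33079 probe sets), 5.51% higher and 6.60% lower. Among those above the background limit, as 35 of the 39 were, 21.7% changed, 9.76% higher and 12.0% lower. The count of falls, 4 of these 35, is near that background. The median log2 change was 0.16 for the 39 genes and 0.01 for all named genes. Changes are Zc3h10 shRNA minus scramble on the log2 scale with the standard error of the fit, so 1 unit is a doubling. Only Zyx, Itga6, Cav1 and Itga7 changed by at least 2-fold. The 3 scramble and 3 shRNA values did not overlap for 25 of the 39 genes, against 31.9% of all named genes. Of the 35 above the background limit 21 lay wholly higher and 4 wholly lower. Of 11512 named genes above it 2951 lay wholly higher and 2829 wholly lower. The labels do not say whether cultures were separate differentiations. The errors combine the spread between these cultures with a variance that limma estimates over all probe sets (4.0 prior and 4 residual degrees of freedom). They are thus not the spread of the gene's own arrays alone. For Itgb1 the standard deviations within groups were 0.024 and 0.020, while the error was 0.08.

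**Figure D1:**
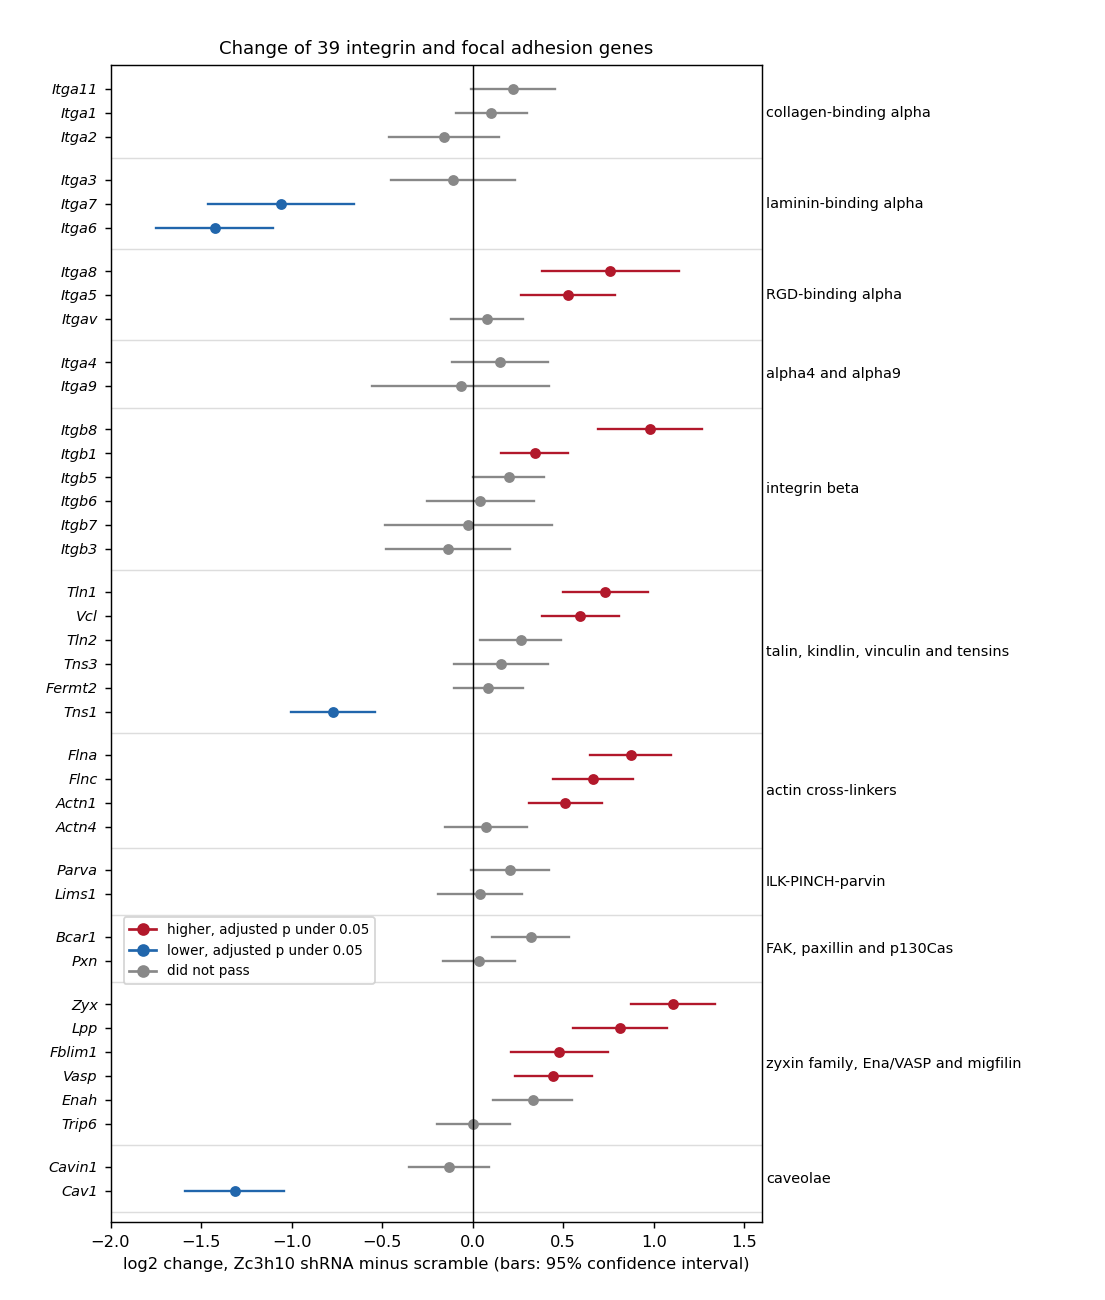
Log2 change (Zc3h10 shRNA minus scramble) of the 39 genes, grouped by role, with 95% confidence intervals from the limma fit on 3 arrays per group. The 13 genes in red rose and the 4 in blue fell at an adjusted p under 0.05; actin cross-linkers and the zyxin group lie mostly to the right, laminin-binding α subunits to the left.

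Of the 3 laminin-binding α subunits, Itga6 and Itga7 were lower, against 6.60% of all named genes. Itga6, whose product pairs with the β subunits of laminin receptors, had log2 intensities of 7.86, 7.87 and 7.77 in scramble replicates 1 to 3, against 6.69, 6.40 and 6.14 in shRNA replicates 1 to 3 (the order used throughout). Every shRNA array was thus below every scramble array, by a wide margin. The change was −1.42 ± 0.14, or 2.68-fold lower (limma, adjusted p = 0.00106). Itga7, the laminin receptor subunit best known from muscle, read 6.54, 6.59 and 6.74 against 5.97, 5.27 and 5.45. The groups were again separate, although shRNA replicate 1 lay nearest to the controls for both genes. Its change was −1.06 ± 0.17, or 2.08-fold lower (limma, adjusted p = 0.00759). The third laminin-binding subunit, Itga3, was under the background limit in both groups.

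Receptors for fibronectin and other RGD-containing ligands, named for the arginine-glycine-aspartate motif they recognise, went up in part. Itga5, the α subunit of the main fibronectin receptor, read 7.99, 7.63 and 7.74 in the controls against 8.24, 8.33 and 8.38 with the hairpin. The groups did not overlap, with scramble replicate 1 closest to the treated cells, and the change was 0.53 ± 0.11 (limma, adjusted p = 0.0237). It missed the threshold when scramble replicate 2 or 3 or shRNA replicate 2 or 3 was left out, with 0.0889 the largest adjusted p. Itga8, a subunit that binds nephronectin and fibronectin and is found on contractile mesenchymal cells, read 5.70, 5.19 and 5.22 against 6.30, 5.90 and 6.19. Here too the shRNA arrays were all higher, but the scramble arrays spread widely. The change was 0.76 ± 0.16 (limma, adjusted p = 0.0246), lost when scramble replicate 2 or 3 or shRNA replicate 1 or 3 was left out (largest adjusted p = 0.0933). Itgav, the subunit shared by the vitronectin receptors, was nearly level, at 0.08 with a 95% confidence interval of −0.12 to 0.28.

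Among β subunits, Itgb8 rose most. Its product pairs with the Itgav protein and binds latent transforming growth factor β. The log2 intensities were 6.36, 6.05 and 6.15 in the controls against 6.98, 7.20 and 7.32 with the hairpin. No array of one group came within the range of the other, and the change was 0.98 ± 0.12, or 1.97-fold higher (limma, adjusted p = 0.00264). Itgb1, the common partner of most α subunits in this list, moved little but evenly, from 10.37, 10.38 and 10.42 to 10.75, 10.71 and 10.74. The arrays of each group nearly coincided, and the change was 0.34 ± 0.08, or 1.27-fold (limma, adjusted p = 0.0344). That call was lost with any single array left out (largest adjusted p = 0.109) and with arrays scaled to equal medians (0.0504). Replicate number as a block lost it too (0.0871). Itgb1 passed 8 of 10 alternatives on all 6 arrays, among them the ordinary statistic (0.0161). Itgb5, a vitronectin receptor subunit, was at 0.20 (limma, adjusted p = 0.225) and Itgb3, its relative, at −0.14 with overlapping groups.

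The other integrin subunits gave no call. Itga1 and Itga11, which bind collagen, were at 0.10 and 0.22 and did not pass. Itga2, Itga3, Itga4 and Itgb6 were under the background limit in both groups, so their changes are not interpreted. Itga9 and Itgb7 lay at or just above it, and their confidence intervals of −0.56 to 0.42 and −0.49 to 0.44 allow sizeable changes either way. In all, 4 of 17 integrin subunits rose and 2 fell. Of named genes above the background limit 9.76% rose and 12.0% fell, and of all named genes 5.51% and 6.60%. The 17 include 4 under that limit. The count of falls is near the share above the limit, and the median change of the 17 was 0.08. The count of rises was 1 when scramble replicate 2 or 3 or shRNA replicate 3 was left out (Itgb8 alone still passed), 2 without shRNA replicate 1 or 2, and 3 without scramble replicate 1.

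**Figure D2:**
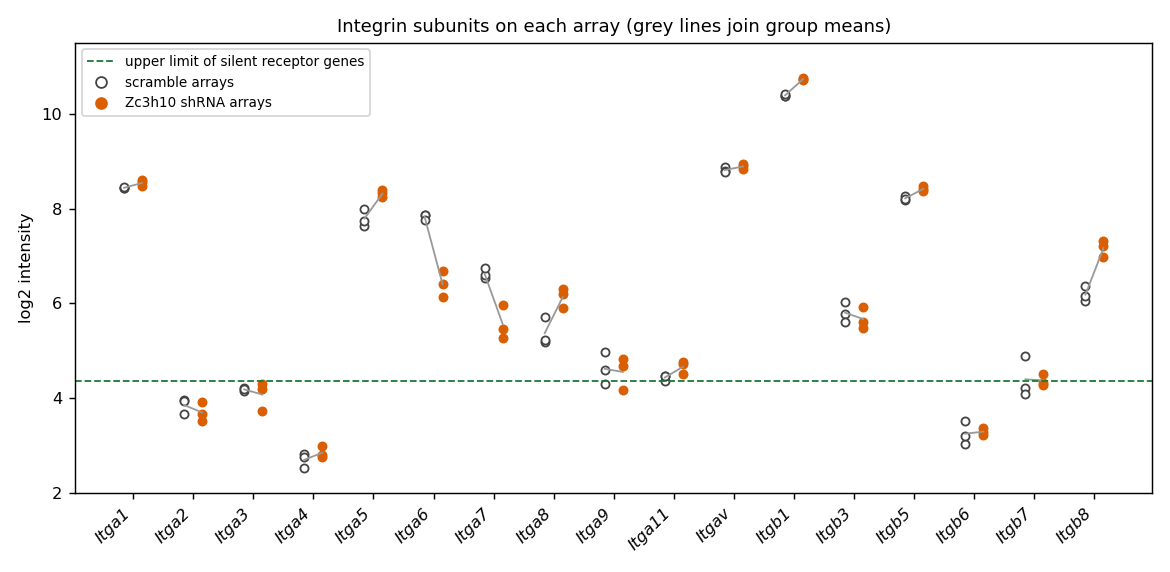
Log2 intensity of the 17 measured integrin subunits on each array, with open points for 3 scramble arrays, filled points for 3 Zc3h10 shRNA arrays and grey lines between group means. Itga6 and Itga7 drop and Itga5, Itga8 and Itgb8 climb, and the subunits at or under the dashed background limit of 4.37 show no call; probe sets differ in brightness, so heights are not to be compared between genes.

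Talin and vinculin, which join the integrin tail to actin and take up force, were higher. Tln1, the talin of most cells, read 9.50, 9.37 and 9.45 in the controls against 10.02, 10.27 and 10.24 with the hairpin. Its groups were well apart, with a change of 0.73 ± 0.10, or 1.66-fold (limma, adjusted p = 0.00374). Vcl, the gene of vinculin, which binds stretched talin, went from 10.65, 10.48 and 10.65 to 11.14, 11.18 and 11.25. All shRNA arrays were higher, by 0.59 ± 0.09, or 1.51-fold (limma, adjusted p = 0.00591). Tln2, the second talin, was at 0.27 (limma, adjusted p = 0.150), and the kindlin gene Fermt2, which activates integrins beside talin, was at 0.09 with a 95% confidence interval of −0.10 to 0.28.

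The tensins, which bind integrin tails in the long-lived fibrillar adhesions that remodel fibronectin, differed between genes. Tns1 read 8.81, 8.94 and 9.08 in the controls against 8.11, 8.25 and 8.17 with the hairpin. It was the one gene of its role group that fell, by 0.77 on the log2 scale (SE 0.10, limma adjusted p = 0.00297), with no overlap. Tns3 was at 0.16 with overlapping groups.

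Actin cross-linkers rose in 3 of 4 cases, against 9.76% of named genes above the background limit. Flna, a filamin that ties integrins to a flexible actin mesh, read 9.57, 9.38 and 9.63 against 10.38, 10.38 and 10.43. The shRNA arrays were almost identical to each other and all above the controls, and the change was 0.87 ± 0.10, or 1.83-fold (limma, adjusted p = 0.00159). Flnc, the filamin typical of muscle, went from 7.82, 7.65 and 7.64 to 8.29, 8.44 and 8.37, a change of 0.66 ± 0.10 (limma, adjusted p = 0.00437). Actn1, an α-actinin that bundles stress fibres, went from 9.42, 9.34 and 9.41 to 9.84, 9.88 and 9.99. Neither gene's groups overlapped, and the change of Actn1 was 0.51 ± 0.09 (limma, adjusted p = 0.00912). Its close relative Actn4 was at 0.07 with a 95% confidence interval of −0.15 to 0.30.

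Zyx rose more than any other gene of the 39. Zyxin moves to stress fibres and adhesions under strain and brings in actin-elongating proteins of the Ena/VASP family. The log2 intensities were 8.55, 8.46 and 8.48 in the controls against 9.43, 9.70 and 9.67 with the hairpin. The separation was many times the spread within groups, and the change was 1.11 ± 0.10, or 2.15-fold higher (limma, adjusted p = 0.000881). Lpp, a zyxin relative first found as a partner gene in lipomas, read 8.61, 8.33 and 8.65 against 9.25, 9.43 and 9.34. It rose in every comparison of a shRNA with a scramble array, by 0.81 ± 0.11, or 1.76-fold (limma, adjusted p = 0.00378). A second Lpp probe set lay far under the background limit, and averaging both gave 0.31. Trip6, the third zyxin relative in the list, was level, at 0.00 with a 95% confidence interval of −0.20 to 0.20.

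The partners of zyxin moved less. Vasp, the founding member of its family, read 6.98, 7.01 and 6.82 in the controls against 7.41, 7.40 and 7.33 with the hairpin. The groups were apart, with a change of 0.45 ± 0.09 (limma, adjusted p = 0.0201), which did not pass without any one of 5 arrays, all but scramble replicate 1 (largest adjusted p = 0.0749). Fblim1, the gene of migfilin, which bridges filamin and kindlin, was dim, at 4.33, 4.05 and 4.39 against 4.63, 4.73 and 4.84. The scramble mean was under the background limit, so its change of 0.48 ± 0.12 (limma, adjusted p = 0.0384) is uncertain in size, and it was lost with any single array left out (largest adjusted p = 0.131). Enah, the other Ena/VASP gene, read 8.09, 7.92 and 8.11 against 8.40, 8.42 and 8.30. Its groups did not overlap either, but at 0.33 ± 0.09 it missed the threshold (limma, adjusted p = 0.0689). It passed with dim probe sets left out (0.0467) or with an intensity trend in the prior (0.0132).

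Signalling scaffolds gave no call. Bcar1, the docking protein that is phosphorylated when stretched, was the nearest, at 0.32 ± 0.09 (limma, adjusted p = 0.0733), with shRNA arrays at 7.17, 7.33 and 7.14 and scramble arrays at 6.86, 6.95 and 6.87. It passed with dim probe sets left out (0.0493) or with an intensity trend (0.0260). Pxn, the gene of paxillin, the scaffold that recruits kinases to new adhesions, was at 0.03 with a 95% confidence interval of −0.16 to 0.23. Lims1 and Parva, whose products form a complex with integrin-linked kinase, were at 0.04 and 0.21 and did not pass. Thus among these 4 scaffold genes the rise seen in Tln1, Vcl and Zyx was not detected, and intervals of that kind still leave room for changes of up to 0.53, the upper bound for Bcar1.

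**Figure D3:**
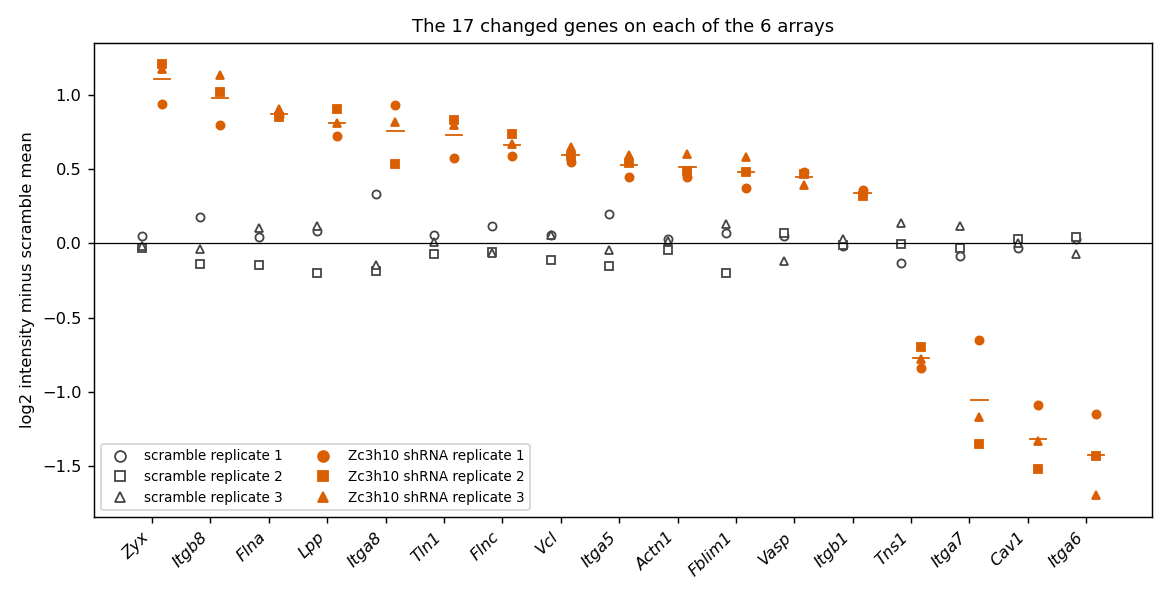
Log2 intensity of the 17 changed genes on each of the 6 arrays, minus the gene's scramble mean (open points scramble, filled points Zc3h10 shRNA, one symbol per replicate, dashes for the shRNA mean). For each gene the 3 filled points lie on one side of all open points; Itga7 has the widest shRNA spread and Itgb1 the tightest.

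As background, adhesion and actin genes such as Vcl are known targets of serum response factor, which binds the CArG box with coactivators held in check by monomeric actin, and TEAD factors act with coactivators that follow cell spreading. AP-1 is a common growth-responsive factor. The RefSeq promoter windows (GRCm38.p6, 250 bases before to 50 after a transcript start) were therefore searched on both strands for the CArG box, for GGAATG (TEAD) and for TGANTCA (AP-1). Windows were held for 35 of the 42 genes, and Itga6 and Itga7 were among the 7 without one. A CArG box was found for 4 of 35 genes against 1.81% of all 27025 genes with windows, GGAATG for 10 against 16.6%, and TGANTCA for 5 against 8.97%. Among the 13 genes that rose, all with windows, Vcl had a CArG box, 6 had GGAATG (Itgb1, Vcl, Flna, Flnc, Lpp and Fblim1) and 2 had TGANTCA (Zyx and Fblim1). Of the 18 genes with a window that did not pass, 3 had each motif, and the CArG boxes there were those of Fermt2, Itgb6 and Trip6.

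The CArG box stretches below set Vcl, which rose, beside 2 genes that carry the motif and did not pass, and the others show AP-1 and TEAD matches of genes that rose. Genes that did not pass held those letters too: GGAATG in Actn4, Trip6 and Cavin1, and TGANTCA in Itga3, Itga9 and Actn4. Each runs 5′ to 3′ on the gene's strand, and capitals mark the matches. Vcl (chr14:20929158-20929267, plus strand) holds a CArG box followed by a TEAD match. Fermt2 (chr14:45530236-45530295, minus strand) and Itgb6 (chr2:60673714-60673773, minus strand) hold a CArG box, and neither gene passed, Itgb6 being under the background limit. Zyx (chr6:42349678-42349737, plus strand) holds an AP-1 match. Fblim1 (chr4:141606093-141606152, minus strand) holds an AP-1 match and, close behind it, a TEAD match on the other strand. Flna (chrX:74246650-74246709, minus strand) and Lpp (chr16:24721645-24721704, plus strand) hold a TEAD match, on the other strand in Flna.
Vcl: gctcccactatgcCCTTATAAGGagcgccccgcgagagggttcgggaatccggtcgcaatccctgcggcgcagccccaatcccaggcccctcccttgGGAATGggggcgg
Fermt2: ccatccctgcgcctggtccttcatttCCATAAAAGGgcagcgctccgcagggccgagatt
Itgb6: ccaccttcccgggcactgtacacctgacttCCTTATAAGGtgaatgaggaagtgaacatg
Zyx: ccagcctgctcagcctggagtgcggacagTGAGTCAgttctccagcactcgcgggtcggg
Fblim1: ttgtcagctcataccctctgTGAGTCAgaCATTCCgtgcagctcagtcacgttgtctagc
Flna: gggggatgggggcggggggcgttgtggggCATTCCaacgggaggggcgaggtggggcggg
Lpp: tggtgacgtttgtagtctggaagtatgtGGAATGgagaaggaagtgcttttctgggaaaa

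The CArG box of Vcl and that of Itgb6 have the same letters, CCTTATAAGG, while Vcl rose by 0.59 and Itgb6 read 3.25 and 3.29 on average in the control and hairpin groups. The box of Trip6, which was level, begins just after the transcript start. A match describes letters in a window and not binding, and a window without one says nothing of the factor. The factor genes themselves were mostly without a call: 1 of 9 was higher, near the 9.76% of named genes above the background limit. Tead2 was the only one of 9 that passed, at 0.82 ± 0.12 (limma, adjusted p = 0.00495), while Srf was at 0.08, and the coactivator genes Mrtfa and Mrtfb at 0.36 and 0.34 did not pass (limma, adjusted p = 0.0698 and 0.0832). With probe sets under the median left out Mrtfa (0.0253) and Mrtfb (0.0310) did pass. With the ordinary statistic Mrtfa (0.126), Mrtfb (0.141) and Tead2 (0.0514) all missed the threshold. Averaged over its probe sets, Mrtfb was at 0.23 (limma, adjusted p = 0.181), while Mrtfa passed in that fit (0.0453).

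Cav1 was lower, and Cavin1, the other caveolar gene of the list, did not pass. Caveolin coats the flask-shaped pits that make up much of the fat cell surface. Cav1 read 7.42, 7.49 and 7.46 in the controls against 6.37, 5.94 and 6.13 with the hairpin. The scramble arrays were tight and every shRNA array was lower, with a change of −1.32 ± 0.12, or 2.49-fold lower (limma, adjusted p = 0.000881). Cavin1, the coat protein needed for caveolae to form, was at −0.13 with a 95% confidence interval of −0.35 to 0.09 and overlapping groups. Of 8 other caveolar coat genes 3 fell: Cav2 (−0.72 ± 0.08), the partner of caveolin in the same complex, Cavin2 (−0.65 ± 0.11) and Ehd2 (−0.46 ± 0.10), an ATPase at the caveolar neck. Among named genes above the background limit 12.0% were lower, and among all named genes 6.60%. Ehd2 lost its call without any one of 5 arrays, all but shRNA replicate 3 (largest adjusted p = 0.0822). Cavin2 (adjusted p = 0.0526) and Ehd2 (0.0644) missed the threshold with the ordinary statistic. The muscle forms Cav3 and Cavin4 were under the background limit, and the median of the 8 was −0.21. The adipocyte markers fell with them: their 6 intensities summed to between 11906 and 13259 in the controls and between 7195 and 7939 with the hairpin. The part of that shift in the result was not tested.

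Related genes were also set side by side within arrays. For 12 pairs the log2 ratio of both probe sets was taken on each array; the pairs were chosen after the changes were known, many for a difference between them, so the ratios are a description with no test. The ratio of Zyx to Trip6 was 1.37, 1.22 and 1.22 in the controls against 2.27, 2.50 and 2.36 with the hairpin, a change of 1.10. For Actn1 to Actn4 it went from 0.16, 0.04 and 0.09 to 0.62, 0.45 and 0.53. These ratios separated the groups, as did Tln1 to Tln2 (a change of 0.47), Itga5 to Itgav (0.45), Itgb8 to Itgb5 (0.78), Tns1 to Tns3 (−0.93) and Cav1 to Cavin1 (−1.18). The widest shift was that of Itga5 to Itga6, the α subunits of a fibronectin and a laminin receptor, which read 0.13, −0.24 and −0.02 against 1.55, 1.92 and 2.25, a change of 1.95. Zyx to Lpp shifted by 0.29 without overlap, and by 0.79 with the probe sets of a gene averaged. Ratios of Flna to Flnc, Itga6 to Itga7 and Vasp to Enah overlapped between groups.

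Most ligand genes of these receptors did not pass, 18 of 24, and the rest were higher. So were 9.76% of named genes above the background limit and 5.51% of all named genes, and 4 of the 24 were under that limit. Fn1, the fibronectin gene, read 11.63, 11.32 and 11.54 in the controls against 12.60, 12.72 and 12.76 with the hairpin, a change of 1.20 ± 0.11 (limma, adjusted p = 0.000881). Of 24 measured ligand genes 6 rose and none fell by limma, with a median of 0.08; 1 was lower at an unadjusted p under 0.05 and 0 by the ordinary statistic. Besides Fn1 these were led by Nid1 (0.68 ± 0.08), a linker of basement membranes, and the laminin chains Lamc1 (0.74 ± 0.12) and Lamb2 (0.61 ± 0.11). So Lamc1 and Lamb2 were higher in the cells in which the laminin receptor subunits Itga6 and Itga7 were lower. Lamc1 (adjusted p = 0.0548), Lamb2 (0.0529) and Itga7 (0.0865) each missed the threshold with the ordinary statistic. Any link between these ligand and receptor genes was not tested. With probe sets under the median left out, 1 ligand gene was lower, and with an offset of 32 before log2 3 were.

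Of 28 further focal adhesion adaptors 8 rose and 0 fell by limma, with 4 lower at an unadjusted p under 0.05 and 0 by the ordinary statistic. They were led by Palld (0.76 ± 0.11), the gene of the actin bundler palladin, the zyxin-like Ajuba (0.79 ± 0.11), Pdlim5 (0.57 ± 0.08) and Csrp1 (0.77 ± 0.12). Csrp1 missed the threshold with the ordinary statistic (adjusted p = 0.0519). The 8 rises became 5 without shRNA replicate 3. Among named genes above the background limit 9.76% were higher in the fit of all arrays, and among all named genes 5.51%. Of the 28 adaptors 6 were under that limit.

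Among adhesion kinases and their adaptors 5 of 26 were higher and 3 lower, and 1 of the 26 was under the background limit. Of named genes above that limit 9.76% were higher and 12.0% lower, so the count of lower genes is near the background. Ptk2b, the calcium-sensitive relative of focal adhesion kinase, fell from 7.15, 7.34 and 7.28 to 5.98, 5.99 and 6.15, a change of −1.22 ± 0.10 (limma, adjusted p = 0.000697). Elmo1, which activates Rac with its partner Dock1, was at −0.70 ± 0.11. Fyn, a Src family kinase that acts at adhesions, was at 0.77 ± 0.10, and the phosphatase gene Ptpn11 at 0.44 ± 0.08. The 5 rises became 1 or 2 when scramble replicate 2 or 3 or shRNA replicate 2 or 3 was left out, and Ptpn11 lost its call when scramble replicate 3 or shRNA replicate 2 or 3 was left out (largest adjusted p = 0.0622). Of 16 genes of integrin partners and trafficking, Rab5a, of early endosomes, was the only call, at −0.46 ± 0.10, lost when scramble replicate 2 or 3 or shRNA replicate 1 or 2 was left out (largest adjusted p = 0.0806) and with the ordinary statistic (0.0599). Plaur, the urokinase receptor gene of the same list, was at 0.81 ± 0.22 and missed the threshold (limma, adjusted p = 0.0601), passing with probe sets under the median left out (0.0309). The 8 integrin subunits outside the list, mostly those of leukocytes and platelets, gave 0 calls by limma, 2 at an unadjusted p under 0.05 and 0 by the ordinary statistic.

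**Figure D4:**
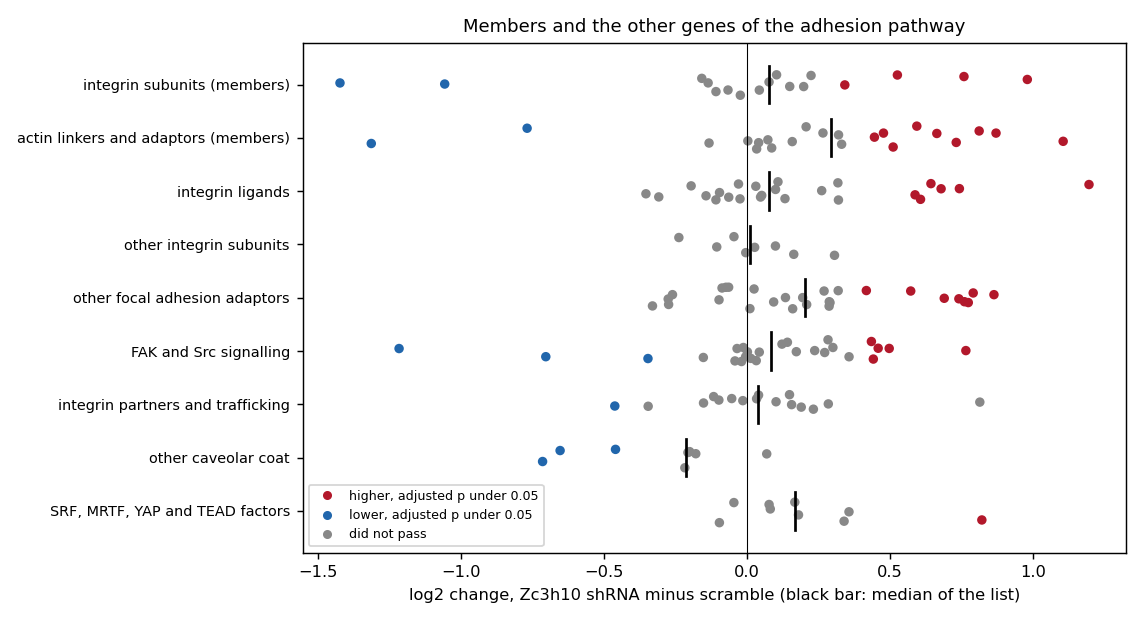
Log2 change (Zc3h10 shRNA minus scramble) of the integrin subunits and linkers and of 7 lists of other adhesion genes; each point is a gene, red or blue where it passed an adjusted p under 0.05, and the black bar is the median of the list. Of the lists drawn, the median is highest for the actin linkers (0.29) and lowest for the other caveolar coat genes (−0.21); vertical scatter has no meaning.

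With 1 array left out, the 13 rises became 8 without scramble replicate 2, scramble replicate 3 or shRNA replicate 3, while the 4 falls stayed at 4. Itga6, Itga7, Itgb8, Zyx, Tln1, Vcl, Flna, Flnc, Actn1, Tns1, Lpp and Cav1, 12 of the 17, passed in each of the 6 such fits. With the ordinary statistic in place of the moderated one, Itga7 (adjusted p = 0.0865), Itga5 (0.0936), Itga8 (0.144) and Fblim1 missed the threshold.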

How the data were processed

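Total RNA of 6 cultures was hybridised to Affymetrix Mouse Gene ST arrays, 1 each. The deposited values are probe set intensities on a linear scale, with nearly equal medians between arrays. The submitters' processing notes list Affymetrix Expression Console and Partek 6.6 but no roles, and how background was handled is not stated in the labels. Log2 was taken without pseudocount, and limma 3.58.1 (R 4.3.3; lmFit, eBayes, two-sided, Benjamini-Hochberg) was fitted to all 33079 probe sets. With 3 arrays per group, their number limits the precision. Names came from the platform annotation, where 23043 probe sets had 1 symbol, 1740 several and 8296 none; RefSeq gene numbers changed 0 symbols. The script was tested on simulated data of this design (33079 probe sets, 200 of them changed, all above the median level), where it recovered 53.6% of 1.5-fold, 98.6% of 2-fold and 100% of 3-fold changes. The simulated spread was the moderated variance of the fit, and far fewer probe sets changed than the 3238 called here. These rates thus check the script and need not hold for the data. All 42 listed genes were named, with up to 4 of smallest p from each further list and the defining markers. The genes and lists were chosen with earlier results of these data known. Alternatives were other scalings, an offset of 32, filters, priors, a replicate block, probe set averaging and arrays left out. A further list is not reported here.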

Additional observations from a re-analysis of the deposited data

How the results depend on the processing

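The 17 calls kept their direction under every alternative run, but most of these could not have changed it. Groups that do not overlap keep their direction with 1 array left out. The filters, the trend, the ordinary statistic and the replicate block leave the size of a change as it was. The 13 rises were 8 to 11 with 1 array left out and 10 to 16 under the other alternatives, and the 4 falls were 4 with 1 array left out and 3 to 4 otherwise. Integrin rises, 4 as reported, were 1 to 3 with 1 array left out, 2 with the ordinary statistic and 2 with the replicate block, and the 2 integrin falls became 1 with the ordinary statistic. Among linkers the 9 rises were 7 to 8 and the 2 falls 2 with 1 array left out. Deviations from group means correlated at 0.08, −0.0046 and 0.04 between samples of equal replicate number. Between samples of unequal number the values ran from −0.09 to 0.06. With 3 arrays per group these values cannot settle whether equal numbers were paired. The block left 10 of the 13 rises, without Itga5, Itgb1 and Fblim1, and all 4 falls. Enah and Bcar1 passed in addition with the offset, either filter, the trend or averaged probe sets, and Itgb5 with the offset (limma, adjusted p = 0.0259). Uncalled changes that crossed 0 were Trip6 at −0.018 with median scaling and, over the left-out arrays, Trip6 from −0.039 to 0.033, Lims1 from −0.021 to 0.088, Itgb6 from −0.061 to 0.17, Itga3 from −0.22 to 0.066, Itga9 from −0.23 to 0.13 and Itgb7 from −0.18 to 0.23. The cause was not tested. The change in the ratio of Zyx to Lpp was 0.79 with averaged probe sets. The related pairs were added after seeing the data. Signal over background limits what can be said of Itga2, Itga3, Itga4, Itgb6 and Fblim1.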
